A study of Mus musculus with 12 samples.

Results

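Loss of the histone demethylase Kdm3a, listed in the labels as Jmjd1a, was examined in XY gonadal somatic cells of the mouse at embryonic day 11.5, when the gonad can still become a testis or an ovary. The comparison took in 6 of the 12 arrays of the series, 3 from control males and 3 from mutant males, each made from the cells of a single embryo. Control males were heterozygous for the Jmjd1a mutant allele and mutant males were homozygous, so that the controls also carried a mutant copy; wild-type males were not analysed here. Every embryo carried the Nr5a1/CD271 transgene, which places a surface tag on gonadal somatic cells. Gonads and mesonephroi were dissociated to about 200000 cells per embryo, and about 40000 tagged cells were then recovered with magnetic beads, per the labels. The sources used here do not give the structure of the mutant allele or the litters of the embryos. The 3 control females and 3 mutant females of the series, heterozygous and homozygous for the same allele and carrying the same transgene, entered the estimate of the spread and a comparison of the sexes.

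Kdm3a removes methyl groups from lysine 9 of histone H3 (H3K9), a mark of silenced chromatin. In XY gonads the Y-linked gene Sry is switched on for a short time in the supporting cells and activates the transcription factor gene Sox9. Sox9 and the growth factor gene Fgf9 then maintain each other and turn the supporting cells into Sertoli cells, whereas without them the ovarian genes Wnt4, Rspo1 and Foxl2 prevail. The title of the series places the demethylase in the regulation of sex determination, and the comparison asks which transcripts differed between XY cells with and without it.

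A level is given throughout as the log2 of an array's processed signal minus the log2 of that array's 75th percentile, so that a level of 0 equals the 75th percentile. A difference is the mutant mean minus the control mean on this log2 scale, with its standard error (SE). The 6 male arrays had 58.0% to 63.4% of spots well above background and correlated at 0.976 to 0.993 across features. The correlations did not follow genotype throughout. Control males 1 and 2 stood at 0.9916 and mutant males 1 and 3 at 0.9928. Yet control male 3 stood at 0.9881 and 0.9888 with mutant males 1 and 3, and at 0.986 with control male 1. Mutant male 2 stood at 0.9903 with control male 2 and at 0.9845 with mutant male 1. Mutant male 1 shared slide 1 with the 3 control males, and mutant males 2 and 3 were on slide 2, so slide and genotype could be told apart through mutant male 1 alone. The gonadal markers Nr5a1, Wt1, Gata4, Lhx9 and Emx2 were well above background on every array, and their male differences lay between 0.11 and 0.38 with no call. The p-values set a difference against the spread between arrays of a group, each from another embryo, pooled over the 4 groups. That spread holds embryo, amplification and hybridisation together, and also slide where a group spans slides. In these bulk samples, fewer cells of a type and less RNA per cell cannot be told apart.

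Of 18258 features tested with limma over all 12 arrays, 100 differed between mutant and control males at an adjusted p below 0.05 (0.548% of the features). The calls were mainly falls, with 83 features lower in the mutants (0.455%) and 17 higher (0.0931%). The median fall was 1.29 on the log2 scale and the median rise 0.96, against a median of -0.04 over all features (quartiles -0.23 and 0.19). At least 2-fold differences made up 65 of the falls and 6 of the rises, and 11 falls and 3 rises reached 4-fold. Gene symbols belonged to 68 of the falls and 13 of the rises. All 100 features had control and mutant males that did not overlap, as did 3821 of the 18258 features (20.9%). At an unadjusted p below 0.05 in limma, 2210 features passed (12.1%, and 11.96% of the named genes). They split into 1257 lower and 953 higher, and the named genes among them into 744 lower and 791 higher. A negative difference was found for 55.17% of all features and 48.6% of the named genes. The gene lists below hold named genes, whose median difference was 0.01 (quartiles -0.17 and 0.24). Sign counts and unadjusted counts of the lists are to be read against these shares. With normexp background correction 64 features were called, 60 lower and 4 higher, and with array weights 4180, 2294 lower and 1886 higher. Among the calls, 5 falls had no mutant male array well above background and 4 rises no control male array. Well above background on all 6 male arrays were 71 of the 83 falls and 10 of the 17 rises. The remaining calls passed the filter through 1 male group alone. Sry, Tph2, Hoxd1 and Gpat2 are among them and passed only through the group where they were high. The adjusted p of these remaining calls does not allow for that selection. With no filter on dim probes 35 features were called, 35 lower and 0 higher.

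**Figure D1:**
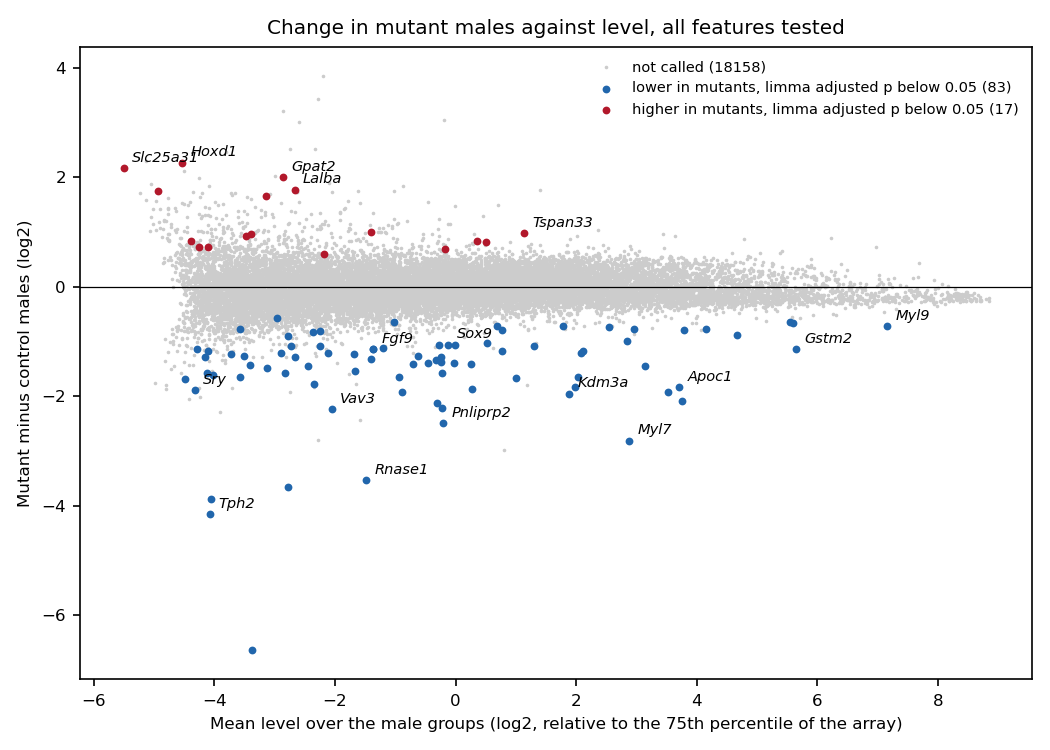
Mean level over the 6 male arrays (log2, horizontal) against the male difference, mutant minus control (log2, vertical), for the 18258 features tested, with the 17 features called higher and the 83 called lower in colour. The called falls reach further from 0 than the called rises and spread over low and high levels.

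Kdm3a itself was lower in every mutant male. Its level was 3.02, 2.70 and 2.85 in control males 1, 2 and 3, and 1.04, 0.99 and 0.70 in mutant males 1, 2 and 3. The groups did not overlap, and the difference of -1.95 ± 0.14 (SE, n = 3 and 3; 3.86-fold; adjusted p = 6.87e-05, limma) held with slide as a block (-1.82) and without any single male array. A second probe fell from -2.84, -2.61 and -2.84 to -6.77, -6.76 and -6.77, where no mutant array was well above background, a fall of at least 4.07-fold (adjusted p = 4.96e-09, limma with every probe tested separately). Such a bound sets the control mean against the higher of the mutant signal and the lowest signal well above background on each mutant array. The sources used here do not say where either probe lies relative to the mutated part of the gene. Among 25 tested genes on each side of Kdm3a on its chromosome, 1 of 50 was called, the actin-capping protein gene Capg 16 tested genes away, which fell by 1.38 ± 0.19 (adjusted p = 0.0123, limma). The Capg call ended without control male 2 (adjusted p = 0.0602, from 0.0337 over the 6 left-out fits) and under the slide block.

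Sry, the gene at the top of the testis pathway, was lower in mutant males. It was read at -2.94, -3.40 and -3.80 in the control males and at -5.44, -5.09 and -5.27 in the mutant males. Every control array was well above background for Sry and no mutant array was, so Sry fell by at least 2.66-fold (difference -1.89 ± 0.21, adjusted p = 0.00187, limma). The 6 female arrays, which have no Y chromosome, had mean Sry levels of -7.24 in controls and -7.51 in mutants, below both male groups. The Sry call held without each male array (adjusted p up to 0.0148) and with slide as a block (-2.06); over the other settings its adjusted p ran from 0.000144 to 0.469, highest with normexp background correction. Other Y-linked genes were not called: the differences were -0.39 for Eif2s3y, a translation factor subunit, -0.15 for Uty, -0.04 for Ddx3y and 0.05 for Kdm5d.

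Sox9, which Sry activates, was at 0.25, 0.60 and 0.36 in control males and at -0.68, -1.03 and -0.23 in mutant males. All mutants lay below all controls, with a difference of -1.05 ± 0.18 (2.07-fold; adjusted p = 0.0321, limma). The Sox9 call was lost without any of control males 1, 2 and 3 or mutant males 1 and 2 (adjusted p over the 6 left-out fits 0.0109 to 0.149). With slide as a block the difference was -1.09 with an adjusted p of 0.218, within a range of 0.0171 to 1.0 over the other settings. A second Sox9 probe was called at -1.08 (adjusted p = 0.018) and another probe read -1.30 (adjusted p = 0.202, limma with every probe tested separately).

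Fgf9, the secreted factor that sustains Sox9, was at -0.88, -0.68 and -0.84 in control males and at -2.26, -1.91 and -1.63 in mutant males. The groups were well apart at -1.14 ± 0.16 (2.20-fold; adjusted p = 0.0123, limma). The call ended when either of control males 1 and 2 was left out (adjusted p up to 0.0606), held with slide as a block (-1.46), and ran from 0.00783 to 0.433 over the other settings, highest against a fold threshold. A second Fgf9 probe read -0.90 (adjusted p = 0.125).

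Of 22 tested genes of the Sox9 and Fgf9 loop and the early Sertoli program, 15 had a negative difference, against 48.6% of the named genes. The median of the 22 was -0.40 (-0.23 with normexp), against 0.01 over the named genes and -0.04 over all features. Called were 3 of the 22, all lower. The other was Cst9, a cystatin gene of early Sertoli cells, at 2.73, 3.28 and 2.53 in the controls against 0.90, 1.66 and 1.03 in the mutants (-1.65 ± 0.27, adjusted p = 0.0285, limma). Its groups were separate, yet the call ended without control male 1 or 2 or mutant male 1 or 3 (adjusted p up to 0.128) and with slide as a block (-1.95), within 0.00261 to 0.355 over the other settings. Aard at -1.21 ± 0.24 (adjusted p = 0.0646) and the prostaglandin D synthase gene Ptgds at -1.78 ± 0.41 (adjusted p = 0.119, limma) did not pass. Amh, the later Sertoli hormone, was not well above background on any male array at this stage.

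Genes above Sry and genes of the ovarian side showed no call of their own. Of 17 tested genes in the group of Sry and its regulators, Sry was the called one and 14 had a positive difference (median 0.30; 0.17 without mutant male 1, 0.19 without control male 2 and 0.18 with array brightness, the log2 of the 75th percentile, as a covariate). None of 18 transcription factors of the bipotential gonad was called by limma, and none had an unadjusted p below 0.05 (median 0.20; 0.11 without mutant male 1, 0.10 with the brightness covariate and 0.34 under the slide block). None of 19 ovarian pathway genes was called, 3 had an unadjusted p below 0.05, and their median was 0.31 (0.14 with normexp and 0.20 with the brightness covariate). Among these ovarian genes Wnt4 stood at -0.02 ± 0.23, Rspo1 at 0.31 ± 0.21 and the activin-binding protein gene Fst at 0.06 ± 0.34 (adjusted p = 0.469 to 0.959, limma). Foxl2 was not well above background on any male array.

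Rnase1, which encodes a secreted ribonuclease, had the largest fall among named genes measured in both groups. Control males read 0.69, 0.53 and -0.36 and mutant males -4.05, -2.93 and -2.76, an 11.6-fold fall (-3.53 ± 0.35, adjusted p = 0.000841, limma) that held without each male array. Control females stood at -3.19, -3.49 and -3.60, so the mutant males lay around the level of the control females, far below the control males. A second Rnase1 probe fell by 2.99 (adjusted p = 0.00281) with no mutant male well above background. Jaml, a junctional adhesion molecule gene, fell by 1.92 ± 0.31 (adjusted p = 0.025) and Mmd2, a membrane receptor family gene, by 1.78 ± 0.30 (adjusted p = 0.0303, limma). Cidea, which encodes a lipid droplet protein, fell by 1.58 ± 0.27 (adjusted p = 0.0317, limma) and was the called member among 32 tested Ppara and fatty acid oxidation genes (median -0.04). These 3 calls did not survive every left-out array: Jaml and Cidea were lost without any array but control male 3 (adjusted p up to 0.0943 and 0.115) and Mmd2 without any but mutant male 2 (up to 0.128). Jaml, but neither Cidea nor Mmd2, was also lost with slide as a block (-2.26).

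Some striated muscle genes fell in the mutant gonadal cells. Of 31 tested sarcomere genes, 6 were called, all lower, and 22 had a negative difference (median -0.28). Myl7, the atrial myosin regulatory light chain, was at 4.64, 4.28 and 3.91 in control males and at 1.70, 1.34 and 1.37 in mutant males. All mutants were far below all controls, a 7.01-fold fall (-2.81 ± 0.22, adjusted p = 0.00013, limma). The skeletal light chain gene Myl1 fell by 1.84 ± 0.18 (adjusted p = 0.000841) and the cardiac inhibitory troponin gene Tnni3 by 1.57 ± 0.14 (adjusted p = 0.000646, limma). Myl3, another myosin light chain, fell by 1.65 ± 0.17 (adjusted p = 0.00102, limma), but a second Myl3 probe read -0.31 (adjusted p = 0.55). Smtnl1, a smoothelin-like contractile regulator, fell by 1.43 ± 0.24 (adjusted p = 0.0303) and the slow skeletal troponin gene Tnnt1 by 0.73 ± 0.12 (adjusted p = 0.0312, limma). The summed linear level of the 31 genes was 71.6 to 83.1 in control males and 41.8 to 43.5 in mutants, and 15 of the 56 listed genes on the array were not well above background on any male array. Hspb2, a small heat shock protein gene of muscle, fell by 1.29 ± 0.14 (adjusted p = 0.00125, limma). Of 15 smooth muscle genes, Myl9 was called, from 7.52 ± 0.14 to 6.80 ± 0.03 (mean ± SD, n = 3 each; difference -0.72 ± 0.11, adjusted p = 0.0247, limma), and the group's median was 0.02. Myl1, Myl3 and Myl9 lost their calls under the slide block (adjusted p = 0.0514, 0.0514 and 0.166; highest over other settings 0.0625, 0.0593 and 1.0), and Myl9 also without any array but control male 2 (up to 0.125). Tnnt1 and Hspb2 lost theirs under the slide block too. Left-out arrays ended the call of Tnnt1 in all 6 fits (up to 0.168) and of Smtnl1 without control male 1 or 2 or mutant male 1 or 3 (up to 0.14).

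Digestive enzyme genes, best known from the exocrine pancreas, also had called falls. Of 17 tested, 8 were called, all lower, including Rnase1; the median of the 17 was -0.26 and 11 had a negative difference. That median rests on single arrays. Leaving out control male 1 or mutant male 3 gave -0.06 or -0.11, against -0.04 over all features and 0.01 over the named genes. Without mutant male 2 or control male 3 it was -0.41 or -0.48. With normexp it was -0.17. Pnliprp2, a lipase-related protein, was at 1.19, 1.00 and 0.94 in control males and at -1.18, -1.79 and -1.39 in mutants, a 5.63-fold fall (-2.49 ± 0.17, adjusted p = 6.15e-05, limma). The carboxypeptidase gene Cpa1 was at 4.81, 4.41 and 4.24 in controls and at 2.73, 2.33 and 2.60 in mutants (-1.93 ± 0.18, adjusted p = 0.000646, limma). Control and mutant males were separate for both genes, and both calls held without each male array and with slide as a block. Pnliprp1 fell by 1.41 ± 0.16, the elastase gene Cela3b by 1.33 ± 0.19, the lipase gene Pnlip by 1.20 ± 0.19 and the zymogen granule protein gene Zg16 by 1.20 ± 0.22 (adjusted p = 0.00187 to 0.0416, limma). Cela3b, Pnlip and Zg16 lost their calls under the slide block, and also without control male 1 or 2 or mutant male 2 or 3 (Cela3b, up to 0.0877), without control male 1 or 3 or mutant male 2 or 3 (Pnlip, up to 0.106), or without any array but control male 3 (Zg16, up to 0.19). The summed linear level of the 17 genes was 53.7 to 76.5 in control males and 18.8 to 20.6 in mutant males.

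Several single genes outside these groups fell too. Tph2, the neuronal enzyme that starts serotonin synthesis, was at -1.36, -2.04 and -2.59 in control males and at -6.36, -5.23 and -6.84 in mutants, where it was not well above background. It fell by at least 6.94-fold (adjusted p = 0.000646, limma), while the other 14 tested neural and neural crest genes had no call and the median of the 15 was -0.07. Vav3, a guanine nucleotide exchange factor, was at -0.77, -1.001 and -1.03 in control males and at -3.13, -3.08 and -3.29 in mutants, a 4.71-fold fall (-2.24 ± 0.13, adjusted p = 1.91e-05, limma) with little spread in either group. Apoc1, an apolipoprotein gene, fell by 1.84 ± 0.22 (adjusted p = 0.004, limma). Cga, the common alpha subunit of the glycoprotein hormones, fell by 1.67 ± 0.27 (adjusted p = 0.0245, limma), a call lost without any array but control male 3 (adjusted p up to 0.11) and with slide as a block (-1.62). The feature with the smallest adjusted p of all, singled out after its values were seen, was TC1669112, a transcript with no gene symbol in the files. It was at 0.20, -0.05 and -0.33 in control males and at -6.77, -6.66 and -6.68 in mutants, a fall of at least 26.5-fold (adjusted p = 3.02e-09, limma).

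**Figure D2:**
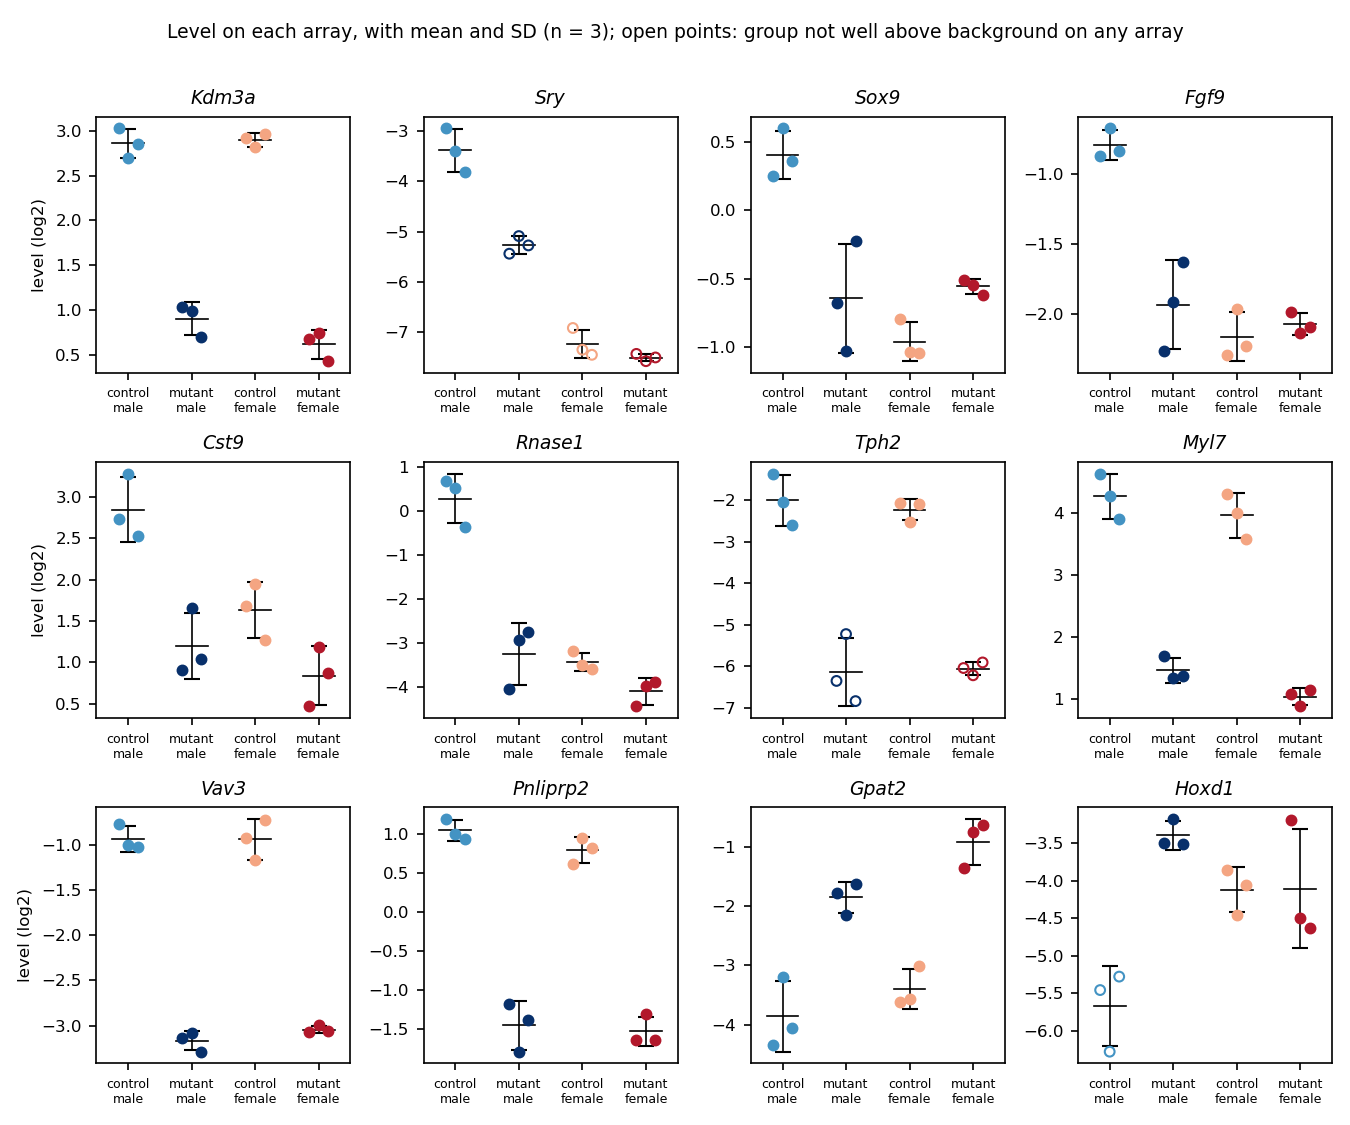
Level (log2, 0 is the array's 75th percentile) of 12 genes on each of the 12 arrays, with the mean and SD of each group (n = 3); open points mark groups in which no array was well above background. Kdm3a, Myl7, Vav3, Pnliprp2 and Tph2 are lower in mutants of both sexes, whereas Sry, Sox9, Fgf9 and Rnase1 are high in control males and lower in the other 3 groups.

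Members of 2 further families were called lower. Glutathione S-transferases, which conjugate glutathione to lipid and xenobiotic compounds, had 2 called members of 19, and 16 of 19 had a negative difference (median -0.37). Gstm2 was at 6.20, 6.32 and 6.15 in control males and at 5.02, 5.16 and 5.06 in mutants, without overlap (-1.14 ± 0.12, adjusted p = 0.00125, limma), and Gstm6 fell by 1.41 ± 0.14 (adjusted p = 0.001, limma). Both calls held without each male array and with slide as a block. The summed linear level of the 19 genes was 361 to 410 in control males and 267 to 305 in mutants. Of 20 interferon response genes, 3 were called, all lower, and 18 had a negative difference (median -0.41; -0.23 with normexp background correction, -0.19 without mutant male 1 and -0.75 under the slide block). The antiviral membrane protein gene Ifitm2 fell by 0.79 ± 0.11 (adjusted p = 0.0134), Ifi27 by 0.99 ± 0.16 (adjusted p = 0.0246) and the guanylate-binding protein gene Gbp2 by 1.29 ± 0.22 (adjusted p = 0.0292, limma). None of the 3 kept its call without every male array: Ifitm2 was lost without control male 1 or mutant male 1 or 3 (up to 0.0843), Ifi27 without any array but mutant male 2 (up to 0.108), and Gbp2 without any but control male 2 (up to 0.141) and with slide as a block (-1.07). Outside these groups the keratin gene Krt79, named after its values were seen, fell by 1.48 ± 0.16 (adjusted p = 0.00148, limma), a call that held without each male array and under the slide block.

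The rises were fewer, and 0 were called with no filter on dim probes. Hoxd1, Slc25a31, Ptprr and Gpat2 entered the test through the mutant males alone. For Gpat2, 2 of the 3 control male arrays were well above background. Hoxd1, a homeobox gene of body patterning, was at -5.46, -6.28 and -5.28 in control males, none well above background, and at -3.50, -3.18 and -3.52 in mutants, a rise of at least 2.23-fold (adjusted p = 0.0247, limma). It was the called member of 29 tested Hox genes, of which 26 had a positive difference (median 0.30; 0.14 with normexp background correction, 0.16 without control male 1 or with the brightness covariate, and 0.46 under the slide block). Gpat2, a glycerol-phosphate acyltransferase of the germ line, was at -4.33, -3.19 and -4.05 in control males and at -1.78, -2.15 and -1.63 in mutants, a 4.01-fold rise (2.00 ± 0.30, adjusted p = 0.0182, limma). Slc25a31, a mitochondrial ADP/ATP carrier of germ cells, rose by at least 1.1-fold over controls that were not well above background (adjusted p = 0.0296, limma). These made 2 called of 20 germline and meiosis genes, whose median was -0.02. The milk protein gene Lalba rose by 1.78 ± 0.30 (adjusted p = 0.0292) and the endocytic receptor gene Lrp2 by 1.00 ± 0.19 (adjusted p = 0.0464, limma). Tspan33, Cdk5r2 and Tchh rose by 0.98 ± 0.18, 0.96 ± 0.16 and 0.84 ± 0.15, Phactr1 by 0.70 ± 0.11, and Ptprr by at least 1.55-fold (adjusted p = 0.0248 to 0.0452, limma). No rise kept its call without each of the 6 male arrays or with slide as a block. The highest left-out adjusted p was 0.095 for Hoxd1 (lost without any array but control male 3), 0.0919 for Gpat2 (without control male 1 or 3 or mutant male 1 or 3), 0.139 for Lalba (any but control male 3) and 0.208 for Lrp2 (any but mutant male 1). Slc25a31, Tspan33, Tchh and Phactr1 lost theirs without any array (up to 0.128, 0.187, 0.131 and 0.109), Cdk5r2 without any but control male 3 (0.116) and Ptprr without any but control male 1 (0.194).

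Among the tested enzymes of H3K9 and DNA methylation, Kdm3a was the called gene. Of 13 H3K9 demethylases 10 had a positive difference (median 0.22; 0.35 without mutant male 2 or under the slide block, and 0.14 with no filter or with the brightness covariate); the Kdm3a relative Kdm3b stood at 0.55 ± 0.24 (adjusted p = 0.407) and Jmjd1c at -0.11 ± 0.16 (adjusted p = 0.693, limma). None of 17 H3K9 methyltransferases and HP1 readers was called by limma, and 11 had a positive difference (median 0.12; 0.04 with normexp, 0.08 without mutant male 1 and 0.20 without mutant male 2; 1 at an unadjusted p below 0.05). None of 14 DNA methylation enzymes was called, and 13 had a positive difference (median 0.15; 0.26 without control male 3, 0.28 without mutant male 2 and 0.36 under the slide block; 1 at an unadjusted p below 0.05), with the maintenance methyltransferase gene Dnmt1 at 0.60 ± 0.24 (adjusted p = 0.369, limma).

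Markers of other cell types in the dissected tissue were measured beside these results, and their part in them was not tested. Mesonephric epithelium markers had a median difference of 0.84 over 21 tested genes, 18 of them positive and none called (10 at an unadjusted p below 0.05), and 0.27 with normexp background correction. Their summed linear level was 57.8 to 65.1 in control males and 64.1 to 93.6 in mutants; Ret and Esrp1 were not well above background on any male array. Cdh1, the epithelial cadherin gene, stood at 1.71 ± 0.34 (adjusted p = 0.0642), Gata3 at 1.01 ± 0.22 (adjusted p = 0.0885) and Wnt9b at 1.89 ± 0.49 (adjusted p = 0.173, limma). Cdh1 was well above background on 2 of the 3 control male arrays and passed the filter through the mutant males alone. Endothelial markers had a median of 0.44 over 18 genes, which differed by array at -0.17, 1.14 and 0.46 for mutant males 1, 2 and 3 (summed 18.4 to 29.4 in controls, 18.6 to 37.3 in mutants; Flt4 not well above background). Erythroid markers had a median of 0.41 over 11 genes, at -0.83, 1.84 and 0.79 by mutant male, so that mutant male 1 lay below and mutant males 2 and 3 above the controls (summed 39.1 to 293 in controls, 32.9 to 377 in mutants; Gata1 not well above background). Macrophage and leukocyte markers had a median of 0.63 over 10 genes, at 0.07, 1.11 and 0.78 (summed 1.04 to 3.92 in controls, 1.86 to 4.16 in mutants; Lyz2 not well above background). Germ cell markers had a median of 0.26 over 10 genes (0.04 with normexp). With a single male array left out, the medians ran from 0.16 (without mutant male 2) to 0.79 (without control male 2) for endothelium, from -0.06 (without mutant male 2) to 1.36 (without mutant male 1) for erythroid markers and from 0.22 (without control male 1) to 1.20 (without control male 2) for macrophages and leukocytes. Under normexp they were 0.21, 0.34 and 0.05, and with no filter on dim probes 0.38, 0.40 and 0.45. Cd14 of the macrophage list and Tfap2c of the germ cell list also passed the filter through the mutant males alone. Each was well above background on 1 of the 3 control male arrays. Such a selection favours positive differences. None of these 4 lists had a called member in limma, with 1, 1, 0 and 1 genes at an unadjusted p below 0.05. Of 24 gonadal mesenchyme and interstitium genes none was called (median 0.32; 0.11 without control male 1, 0.19 without mutant male 3, 0.12 under the slide block, 0.20 with normexp and 0.21 with the brightness covariate; 3 at an unadjusted p below 0.05), and of 13 steroidogenic and adrenal genes none was called (median -0.29; -0.18 without mutant male 1 and -0.17 with normexp; 3 at an unadjusted p below 0.05).

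The remaining pathways had no called member in limma. Medians were 0.35 over 24 Hedgehog and Notch genes, 0.16 over 34 hypoxia and glycolysis genes, 0.05 over 35 cell cycle and replication genes and 0.00 over 25 imprinted growth regulators, with 6, 8, 4 and 1 genes at an unadjusted p below 0.05. The Hedgehog and Notch median was 0.20 without control male 1, 0.10 with normexp and 0.17 with the brightness covariate, and the hypoxia and glycolysis median 0.10 without control male 2 and 0.045 under the slide block. The 28 immediate early and heat shock genes had a median of 0.27 that differed by array, 0.59, -0.40 and 0.68 for mutant males 1, 2 and 3, and 3 of them had an unadjusted p below 0.05. It ran from -0.03 without control male 1 to 0.61 without mutant male 2.

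**Figure D3:**
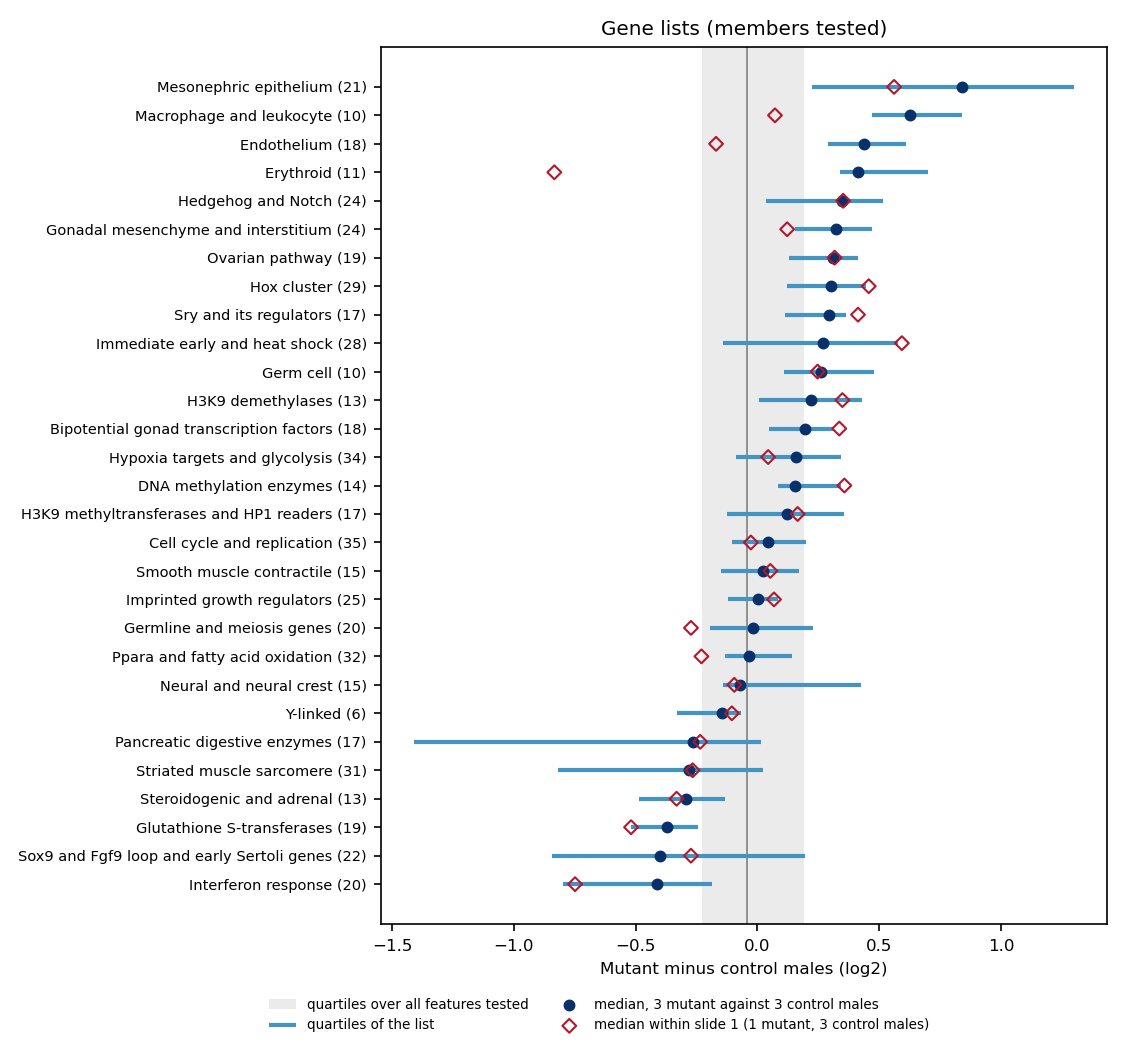
Male difference, mutant minus control (log2, horizontal), for each of the 29 gene lists, with the median as a point, the quartiles as a line, and the median of mutant male 1 against the control males on slide 1 as a diamond; the grey band spans the quartiles of all features. The lists with the most called falls, digestive enzymes and sarcomere genes, have medians of -0.26 and -0.28 with quartile lines that reach far below the band, and the erythroid diamond at -0.83 lies on the other side of 0 from its median of 0.41.

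How firmly the 100 calls held differed between falls and rises. Of the 83 falls, 23 kept their call without each of the 6 male arrays, 29 with slide as a block, and 18 under both; of the 17 rises, 0 did under either. The block reduces the male comparison to mutant male 1 against the 3 control males of slide 1. Medians there were -1.38 for the 83 falls and 0.85 for the 17 rises. All 100 kept their sign, but this was fixed in advance, since control and mutant males did not overlap for any of them. Mutant male 1 is also part of the full comparison, so this is not an independent sample. Among the 18 falls were Kdm3a, Tph2, Myl7, Pnliprp2, Vav3, Cpa1 and Tnni3. With a single array left out, the count of calls ran from 27 (without control male 1) to 60 (without control male 3), with 40 without control male 2 and 51, 48 and 33 without mutant males 1, 2 and 3.

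The females gave a second, separate pair of groups for the same allele. In females 66 features were called (0.361%), 65 lower (0.356%) and 1 higher (0.00548%). Of the 83 male falls, 80 were also lower in mutant females (median -1.02) and 44 were called there. The difference in females and in males was -2.11 and -2.24 for Vav3, -2.93 and -2.81 for Myl7, -2.32 and -2.49 for Pnliprp2, and -2.27 and -1.95 for Kdm3a. Of the 17 male rises, 16 had the same sign in females (median 0.26) and Gpat2 was called, at 2.47 (adjusted p = 0.00406, limma). Slide and genotype overlap in females too, since slide 3 held all mutant females and control female 3.

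Testis pathway genes had lower levels in control females than in control males for Sox9 (-0.80, -1.04 and -1.05) and Fgf9 (-2.29, -1.96 and -2.23). The difference of the mutant effects, male minus female, was -1.46 ± 0.26 for Sox9, -1.23 ± 0.22 for Fgf9, -1.62 ± 0.30 for Sry and -2.86 ± 0.49 for Rnase1 (adjusted p = 0.708 for each, limma). For Hoxd1 it was 2.25 ± 0.52 (adjusted p = 1.0). The females have no Y chromosome and no female array was well above background for Sry, so the Sry value restates the male fall. No feature of 18258 passed the adjusted threshold for the difference of the mutant effects (0.0%; 645 at an unadjusted p below 0.05), so no male fall or rise was shown to depend on sex across all features. At the unadjusted level 23 of the 83 falls and 11 of the 17 rises differed between the sexes, against 645 of all 18258 features. The falls and rises were picked for their male difference, which is part of this contrast. That choice raises their counts, so the counts are no support for a dependence on sex. Female Sox9 and Fgf9 differences were 0.41 and 0.09, neither called.

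**Figure D4:**
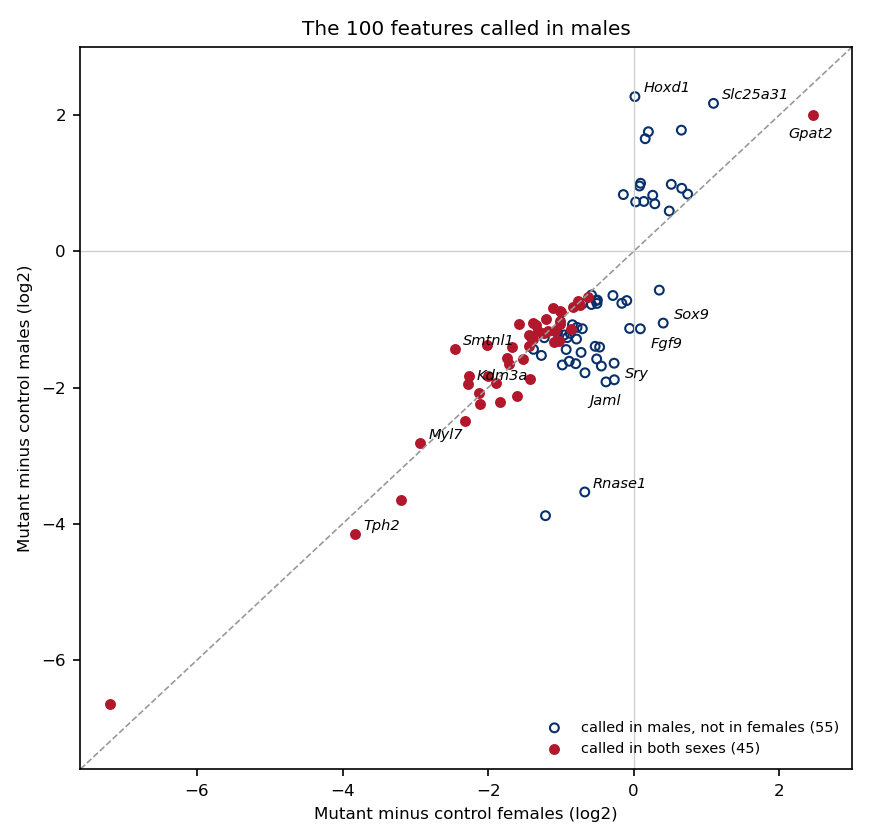
Difference, mutant minus control (log2), in males (vertical) against females (horizontal) for the 100 features called in males, with the 45 called in both sexes filled, the 55 called in males, not in females, open, and a dashed line where both differences are equal. Myl7, Tph2, Kdm3a and Gpat2 lie near the dashed line, while Rnase1, Sry, Jaml, Sox9, Fgf9 and Hoxd1 lie nearer to 0 on the female axis.

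Other probes and neighbouring genes gave further readings of the same calls. For 16 called genes, 18 other probes were tested; 17 had the same sign, 9 were also called, and 1, for the aldo-keto reductase gene Akr1c19, had the opposite sign at 0.68 (adjusted p = 0.503) against -1.08 for the called probe. The called genes included close neighbours on chromosomes: 8 pairs with at most 2 tested genes between them held 15 of the 81 called named genes, and in all 8 both genes fell. Among them were Pnlip with Pnliprp1 and Pnliprp1 with Pnliprp2, Tnnt1 and Tnni3, Ifi27l2a and Ifi27, Gstm6 and Gstm2, and the less studied pairs Gm9758 and Speer4d, and 1810065E05Rik and 2210407C18Rik. The members of the Pnlip, Gstm and Ifi27 pairs belong to the same gene family. Gm9758 and Speer4d also share long stretches of promoter sequence, as do 1810065E05Rik and 2210407C18Rik. Cross-hybridisation between the members of these pairs was not tested.

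Promoters of the genes that fell held few CpG dinucleotides, the sites of DNA methylation. RefSeq promoter windows on GRCm38.p6, from 250 bases before to 50 bases after each gene start, matched 62 of the 81 called named genes and 10250 of the named genes tested. The 51 matched genes that fell had a median of 5 CpG in the 300 bases, and 29 of them (56.86%) had at most 5, against a median of 20.5 CpG, and 1076 with at most 5, over all 10250 genes. Their median GC content was 49.33% against 60.67%. The 11 matched genes that rose had a median of 20 CpG, and 3 (27.27%) had at most 5. On either strand, TATAAA occurred in 11 of the 51 windows (21.57%; 7.5% of all 10250) and AGATAA also in 11 (21.57%; 6.43% of all). AAGGTCA occurred in 1.96% (3.19% of all) and TGACGTCA in 1.96% (3.25% of all). These shares describe letters in the windows, and no test was made of them.

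The windows of 7 genes are shown because they span this range, in lower case and 5′ to 3′ on the gene's strand, with every CpG in capitals. Sry, Cpa1 and Rnase1 have 2 CpG each, Myl7 has 5, Pnliprp2 has 8, Gpat2, which rose, has 15, and Vav3 is an exception among the strong falls with 33. In the Sry window the 2 CpG lie in the last 50 bases, from the gene start on. These bases open with atg, the letters of a start codon. The Sry window may therefore be placed at the start of the coding sequence, and its CpG count may not be that of the promoter.
Sry, chrY:2663609-2663908, minus strand: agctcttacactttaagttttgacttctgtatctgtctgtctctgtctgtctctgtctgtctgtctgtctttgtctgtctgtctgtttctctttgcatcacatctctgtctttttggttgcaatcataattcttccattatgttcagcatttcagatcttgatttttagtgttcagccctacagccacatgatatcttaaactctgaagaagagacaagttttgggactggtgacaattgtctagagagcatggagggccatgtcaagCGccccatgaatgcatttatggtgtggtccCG
Cpa1, chr6:30638968-30639267, plus strand: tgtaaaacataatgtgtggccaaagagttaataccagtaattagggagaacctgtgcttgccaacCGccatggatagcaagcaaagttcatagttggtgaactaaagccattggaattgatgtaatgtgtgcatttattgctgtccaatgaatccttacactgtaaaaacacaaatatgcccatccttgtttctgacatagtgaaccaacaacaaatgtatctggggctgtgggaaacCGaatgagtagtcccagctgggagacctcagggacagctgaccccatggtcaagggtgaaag
Rnase1, chr14:51146718-51147017, minus strand: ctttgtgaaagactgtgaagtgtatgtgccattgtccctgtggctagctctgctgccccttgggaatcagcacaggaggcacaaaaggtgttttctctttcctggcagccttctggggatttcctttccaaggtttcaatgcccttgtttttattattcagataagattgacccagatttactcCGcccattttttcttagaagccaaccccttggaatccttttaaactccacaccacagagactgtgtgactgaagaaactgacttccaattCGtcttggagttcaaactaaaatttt
Myl7, chr11:5898733-5899032, minus strand: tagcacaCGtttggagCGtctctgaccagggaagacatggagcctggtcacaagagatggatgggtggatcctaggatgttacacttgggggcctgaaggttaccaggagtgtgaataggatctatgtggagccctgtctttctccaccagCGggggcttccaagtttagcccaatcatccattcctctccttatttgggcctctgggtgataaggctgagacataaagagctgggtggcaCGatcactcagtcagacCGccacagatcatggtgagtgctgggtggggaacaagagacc
Pnliprp2, chr19:58759473-58759772, plus strand: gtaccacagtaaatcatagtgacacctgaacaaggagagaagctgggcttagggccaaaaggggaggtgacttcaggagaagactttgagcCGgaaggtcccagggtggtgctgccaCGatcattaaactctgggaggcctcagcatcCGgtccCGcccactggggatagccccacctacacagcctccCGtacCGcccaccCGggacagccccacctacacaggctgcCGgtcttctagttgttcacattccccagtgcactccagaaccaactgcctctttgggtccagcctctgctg
Gpat2, chr2:127424949-127425248, plus strand: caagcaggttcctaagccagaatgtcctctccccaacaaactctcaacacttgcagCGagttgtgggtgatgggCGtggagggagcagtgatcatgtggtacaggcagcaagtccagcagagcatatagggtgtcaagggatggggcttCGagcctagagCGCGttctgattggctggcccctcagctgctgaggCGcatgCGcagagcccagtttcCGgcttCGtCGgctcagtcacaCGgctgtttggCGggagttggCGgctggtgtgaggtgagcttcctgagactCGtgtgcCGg
Vav3, chr3:109340433-109340732, plus strand: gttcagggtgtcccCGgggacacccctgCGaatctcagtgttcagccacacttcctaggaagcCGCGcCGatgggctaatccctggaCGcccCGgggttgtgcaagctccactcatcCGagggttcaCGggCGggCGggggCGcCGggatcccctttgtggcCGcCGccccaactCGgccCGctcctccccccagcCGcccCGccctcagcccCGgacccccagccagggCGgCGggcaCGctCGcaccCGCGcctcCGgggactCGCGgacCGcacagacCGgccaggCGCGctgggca
In these windows the Sry, Cpa1 and Rnase1 lines are almost without capitals, while the Vav3 line is dense with them.

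**Figure D5:**
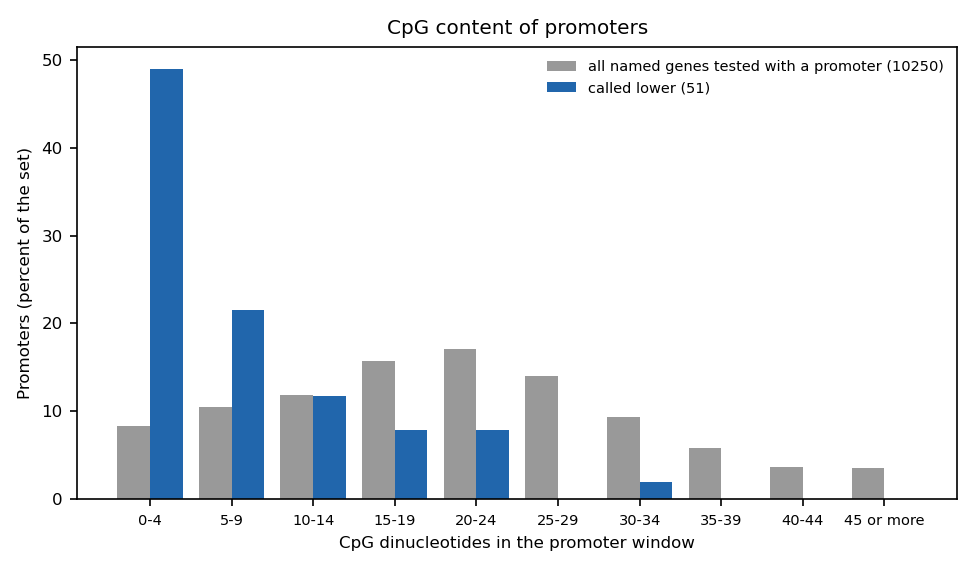
CpG dinucleotides per 300-base promoter window (horizontal, in bins of 5) against the percent of genes (vertical), for the 10250 named genes tested with a window and the 51 called lower. The genes that fell pile up in the lowest bin, which holds 49.02% of them and 8.3% of all genes.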

How the data were processed

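Total RNA of each embryo's purified cells was amplified, labelled with Cy3 and hybridised to an Agilent mouse array of design 014868 (mm9), per the file headers and the labels' protocols. The deposited files hold intensity values from Feature Extraction 10.5.1.1, per the file headers and the submitters' processing notes: a background-subtracted processed signal per spot and a flag for spots well above background. No normalization between arrays is recorded there.

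From 43379 non-control spots, outlier-flagged spots were dropped, spots of a probe averaged, and the log2 of the deposited intensity taken minus the log2 of each array's 75th percentile over these spots. A feature entered where all 3 arrays of a male group had its probe well above background; a gene was read by its brightest such probe over the male arrays. This left 18258 features, 12836 with a symbol. Of these, 50 had a value missing on a male array, none of them called. Older symbols were updated through RefSeq tables, and 13695 of 41174 probes kept their accession.

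Group means over the 4 groups of 3 arrays were fitted with limma 3.58.1 (R 4.3.3), with Benjamini-Hochberg adjustment over all features and a threshold of 0.05. The code was tested on simulated data. Named genes were Kdm3a, Sry, Sox9 and Fgf9, the 14 largest falls and 10 largest rises with a symbol, up to 4 called members of each of 29 lists (else the 2 of smallest p), and up to 8 genes whose call held under the slide block and without every single male array. A gene that this rule names is not reported here. Further list members and genes so marked were named after their values were seen. The members and lists were chosen with earlier results of these data known. Alternatives were quantile normalization, normexp, other filters, every probe, the male arrays alone, array weights, replicate and slide blocks, a log2 threshold of 0.5, leaving out each male array and, added after seeing the data, array brightness as a covariate and the males of slide 1 alone. In normexp, local backgrounds flagged as outliers were replaced by the array's median. Replicate numbers were not taken to pair the samples. Signal over background and 3 arrays per group limit the precision. Figures were drawn with matplotlib 3.10.9.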

Additional observations from a re-analysis of the deposited data

Results flagged for a closer look

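For 4 named genes every mutant male lay on the other side of its control mean from every mutant female. The difference of the mutant effects, males minus females on the log2 scale, was -1.459 for Sox9, -1.229 for Fgf9, -1.269 for Dhh, the hedgehog ligand of Sertoli cells, and 0.969 for Cpt1b, the muscle carnitine palmitoyltransferase. None passed the limma test of this difference after adjustment over 18258 features. Dhh stood at -0.74 ± 0.27 in males and 0.53 in females, and Cpt1b at 0.57 ± 0.17 in males and -0.39 in females; neither gene was called in males.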

How the results depend on the processing

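The count of 100 calls was within 1.5 times under quantile normalization, the filters on any of the 4 groups or on all 6 male arrays, every probe tested separately, and the brightness covariate. It was 64 with normexp (4 higher, 60 lower), 35 with no filter (0 higher, 35 lower), 47 with the male arrays alone (7 and 40), 4180 with array weights (1886 and 2294), 49 with slide as a block (7 and 42), 23 against the fold threshold (0 and 23) and 27 with the slide 1 males alone (1 and 26). Leaving out a male array gave 27 to 60 calls, 1 to 9 higher and 26 to 52 lower. Rises numbered 10 with the filter on all 6 male arrays and 8 with the brightness covariate. The difference between the sexes, 0 in the reported fit, had 7 calls with the slide block, 1 with brightness and 2 with the slide 1 males alone, and could not be fitted with the male arrays alone. Signs reversed for Ptprr (-0.047) and Cd14 (-0.055) with normexp, and for Slc4a1 with the slide block and the slide 1 males alone (-0.091). Except where fewer samples, features or a threshold set it by construction, the cause was not tested.

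Deviations of same-numbered control and mutant males correlated at -0.1292, 0.3466 and 0.3325, and those of other pairs at -0.519 to 0.3414. With 3 arrays per group these values cannot settle whether the numbers pair the samples. The numbers were not taken to pair them. With the replicate block, 64 features were called, 6 higher and 58 lower, of which 58 were among the 100. Probes not well above background in a group give bounds in place of folds, and with 3 arrays per group small differences were below what the spread allowed.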
